A study of Caenorhabditis elegans with 12 samples.

Results

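The genes unc-54, unc-15 and lev-11 encode major filament proteins of the body wall muscle of Caenorhabditis elegans, and their transcripts were followed through 9 libraries of early embryos that lack the histone methyltransferase MET-2, its cofactor LIN-65 or both. They are 3 of the 2949 genes that the authors' 3 deposited tables hold between them, and were chosen by name. The worms had been synchronized at the first larval stage and kept at 20 °C for 60 to 65 h, and RNA of their embryos, of 1 to 300 cells, was sequenced after ribosomal RNA had been depleted. The labels' molecule entry reads genomic DNA, but the library kit and protocol they describe are for RNA, which the values are taken to measure. The strains were the double mutant carrying the lin-65 deletion on chromosome I and met-2(n4256) on chromosome III, the lin-65 deletion alone, met-2(n4256) alone, and the N2 (Bristol) wild type, with 3 libraries each that the labels call independent biological replicates. Each strain carries its mutations in all cells, and the labels give no stage count for single libraries. Values are log2 ratios to N2, so that 1 unit is 2-fold. No header names this baseline, and it was read from the values, since the lin-65 transcript averaged −6.04 ± 0.21 in double mutant libraries, −5.88 ± 0.09 in lin-65 libraries and −0.22 ± 0.04 in met-2 libraries (SD, n = 3), and the met-2 transcript averaged −2.76, −0.02 and −2.36 in the same order of strains. The N2 libraries have no column of their own and the tables hold no counts, so the depth and the N2 spread are unknown, and no test against N2 was made.

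Striated body wall muscle contracts by the sliding of interleaved thick and thin filaments. Thick filaments are built from myosin around a core of paramyosin, thin filaments are actin coated with tropomyosin and troponin, and calcium acting on troponin and tropomyosin lets myosin bind actin. In worm embryos the muscle cells are born before the filaments are assembled, and filament transcripts are known to accumulate as these cells differentiate. UNC-54 is the major myosin heavy chain of body wall muscle, UNC-15 is paramyosin and LEV-11 is tropomyosin. MET-2 deposits dimethylation on lysine 9 of histone H3, a mark of repressed chromatin, and LIN-65 works with it.

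All 3 genes lie on the minus strand of chromosome I in the Ensembl 115 annotation, the chromosome that also carries lin-65. They are unc-54 (WBGene00006789), unc-15 (WBGene00006754) and lev-11 (WBGene00002978). Chromosome I held 12.5% of the annotated genes with values and 14.4% of all coding genes. The annotation gives 1 coding transcript for unc-54, 3 for unc-15 and 20 for lev-11. The single value of lev-11 does not tell its isoforms apart. No annotated gene overlaps unc-54 or unc-15, while 1 non-coding RNA gene lies on the opposite strand of lev-11. Whether the authors' counting told the strands apart is not known here, so reads of that gene and lev-11 may be mixed.

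The myosin gene unc-54 stood at 2.39, 2.26 and 2.24 in replicates 1, 2 and 3 of the double mutant. In lin-65 it stood at 0.36, 1.28 and 0.96, and in met-2 at 2.49, 1.76 and 2.01. The double mutant and met-2 libraries overlapped, and all 3 lin-65 libraries lay below both. The means were 2.30 ± 0.08, 0.87 ± 0.47 and 2.09 ± 0.37 (SD, n = 3) for the double mutant, lin-65 and met-2, which are 4.91, 1.82 and 4.25 times N2. A mean of at least 1 was held by 85.8%, 36.3% and 68.3% of all genes in these mutants. The spread in lin-65 was wide for this mutant, larger than for 98.1% of all genes with values. Replicate 1 stood 0.76 below the mean of replicates 2 and 3, against a median gap of −0.10 over all genes and −0.20 over 19 filament genes. Without that library the lin-65 mean of unc-54 was 1.12.

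The paramyosin gene unc-15 had the highest values of the 3 genes in the double mutant and in met-2. It stood at 2.72, 2.69 and 2.63 in the double mutant. The lin-65 libraries gave 0.97, 1.50 and 1.37, and the met-2 libraries 2.61, 2.01 and 2.05. None of the 3 groups overlapped another, although replicate 1 of met-2 came close to the lowest double mutant library. Of all genes, 27.7% were higher in the double mutant than in met-2 without overlap, 77.9% higher in the double mutant than in lin-65, and 47.1% lower in lin-65 than in met-2. The means of 2.68 ± 0.05, 1.28 ± 0.27 and 2.22 ± 0.34 (SD, n = 3) correspond to 6.40, 2.43 and 4.67 times N2. Counted from the highest mean among 2949 genes, unc-15 was at place 133 in the double mutant, 143 in met-2 and 497 in lin-65.

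Tropomyosin had the smallest SD of the 3 in lin-65 and met-2. The lev-11 transcript stood at 2.39, 2.53 and 2.42 in the double mutant, at 1.18, 1.37 and 1.28 in lin-65, and at 2.38, 1.88 and 1.91 in met-2. Again no group overlapped another, and replicate 1 of met-2 was within 0.01 of the lowest double mutant library. Its means were 2.45 ± 0.07, 1.28 ± 0.09 and 2.06 ± 0.28 (SD, n = 3), or 5.45, 2.42 and 4.16 times N2. It was the only one of the 3 in the authors' lin-65 table. Of the others, unc-54 had a lin-65 mean under 1, while that of unc-15 was as high as that of lev-11. All 3 were in the tables of the double mutant and met-2, which hold 89.5% and 65.8% of the 2949 genes, while the lin-65 table holds 33.0%.

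**Figure D1:**
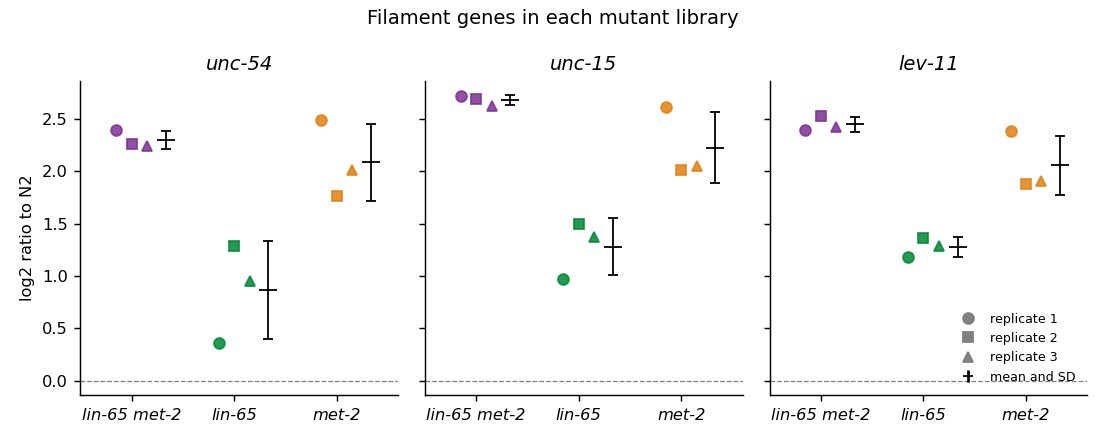
The log2 ratio to N2 (vertical axis) of unc-54, unc-15 and lev-11 is plotted for each library of the lin-65 met-2 double mutant, lin-65 and met-2, with a symbol for each replicate number and the mean with its SD in black. The lin-65 libraries lie lowest in each panel, unc-54 spreads from 0.36 to 1.28 there, and replicate 1 of met-2 lies above replicates 2 and 3 in all 3 panels.

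Replicate 1 of met-2 stood above the mean of replicates 2 and 3 by 0.60 for unc-54, 0.58 for unc-15 and 0.49 for lev-11, close to the median gap of 0.47 over all genes with values. Library medians over all 2949 genes were 1.47 to 1.49 in the double mutant, 0.77 to 0.97 in lin-65 and 1.06 to 1.53 in met-2, the last number belonging to replicate 1. In RNA of whole embryos, a different number of muscle cells and a different amount of transcript per muscle cell cannot be told apart, and the same holds for the share of older embryos in a sample.

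Whether the mutants differed from each other was tested with limma over all 2949 genes and 9 libraries, with Benjamini-Hochberg adjustment at 0.05. This comparison does not use the N2 libraries, but its genes are those the authors selected. Since unc-54 and unc-15 entered only through the double mutant and met-2 tables, the selection favours lower values of both in lin-65. All 3 genes were higher in the double mutant than in lin-65, where 74.3% of all genes were higher. The difference was 1.43 (SE 0.23, adjusted p = 7.97e-05) for unc-54, 1.40 (SE 0.20, adjusted p = 3.09e-05) for unc-15 and 1.17 (SE 0.18, adjusted p = 5.56e-05) for lev-11, against a median of 0.70 over all genes. In ratios, the double mutant held 2.69, 2.63 and 2.25 times the lin-65 transcript of unc-54, unc-15 and lev-11. Of all genes 93.7%, 92.9% and 85.3% had a smaller difference than these 3. With each library centred on its own median, the differences were 0.79, 0.75 and 0.53 and each still passed, while over all genes 637 were then higher and 486 lower, against 2190 and 136 without centring.

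All 3 genes were lower in lin-65 than in met-2, as were 41.9% of all genes. The difference was −1.22 (SE 0.23, limma adjusted p = 0.000461) for unc-54, −0.94 (SE 0.20, adjusted p = 0.00124) for unc-15 and −0.78 (SE 0.18, adjusted p = 0.00247) for lev-11. The median over all genes was −0.42. Here too the selection favours lower values of unc-54 and unc-15 in lin-65. With centring the differences were −0.84, −0.56 and −0.40, and each still passed (limma adjusted p from 0.00484 to 0.00889), while over all genes 366 were then higher and 523 lower, against 145 and 1236. With replicate 1 of lin-65 left out, unc-54 differed by −0.97 (limma adjusted p = 0.00452).

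Between the double mutant and met-2 none of the 3 genes passed, while 11.8% of all genes were higher in the double mutant and 4.92% lower. At an unadjusted limma p under 0.05, unc-15 and lev-11 would have counted as higher, beside 33.4% of all genes. The difference was 0.45 for unc-15 (95% interval 0.03 to 0.87, limma adjusted p = 0.103) and 0.39 for lev-11 (0.01 to 0.77, adjusted p = 0.115). For unc-54 it was 0.21 (−0.28 to 0.69, adjusted p = 0.464), and with centring it turned to −0.05. Centring called 143 of all genes higher and 272 lower, against 348 and 145. For unc-15 and lev-11 the missing call depends on the weight of single libraries. With all 9 libraries kept but weighted by their spread, the difference was 0.62 for unc-15 and 0.53 for lev-11 and both passed (limma adjusted p = 0.000817 and 0.000698), and it was 0.32 for unc-54 (adjusted p = 0.0806). Without replicate 1 of met-2 the difference was 0.65 (limma adjusted p = 0.00565) for unc-15, 0.55 (adjusted p = 0.00425) for lev-11 and 0.41 (adjusted p = 0.117) for unc-54. The number of all genes called higher then went to 1762 (59.7%), against 348 with all libraries and no weights. The median over all genes was 0.32 with all libraries, and 34.8%, 72.0% and 61.7% of genes had a smaller difference than unc-54, unc-15 and lev-11.

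**Figure D2:**
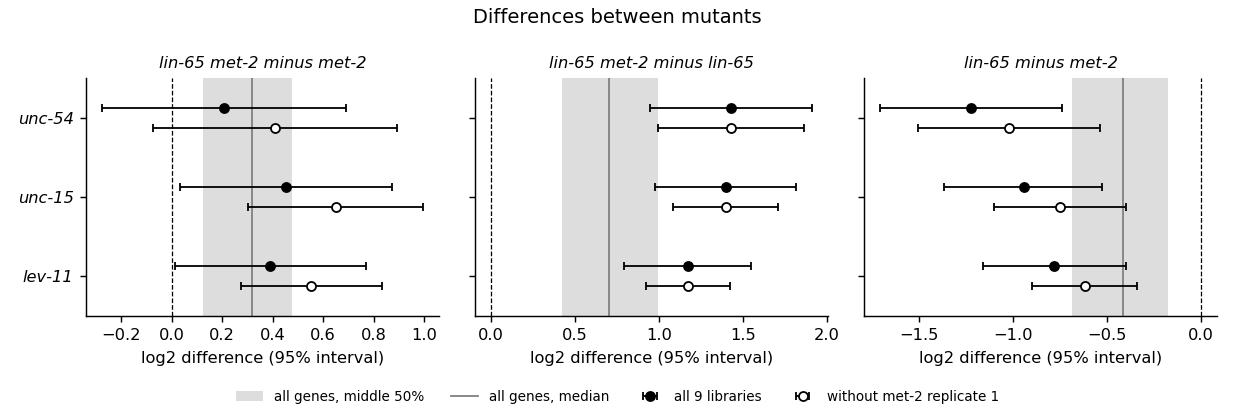
Differences in log2 value between mutants (horizontal axes, with 95% intervals from limma) are shown for unc-54, unc-15 and lev-11, filled for all 9 libraries and open without met-2 replicate 1. The grey band spans the quartiles of all genes and the grey line their median. The intervals against lin-65 lie away from 0. For the double mutant minus met-2 with all 9 libraries, that of unc-54 spans 0, while those of unc-15 and lev-11 start just above it. There the unc-15 difference moves up to 0.65 when that met-2 library is left out.

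The genes were also set against each other within libraries. There, where any scaling cancels, unc-15 exceeded unc-54 by 0.33 to 0.43 in the double mutant, 0.21 to 0.61 in lin-65 and 0.04 to 0.24 in met-2. The double mutant and met-2 libraries did not overlap in this gap. The other body wall myosin heavy chain, myo-3, whose product occupies the middle of the thick filament, was set against unc-54. The gap of unc-54 over myo-3 was 0.10 to 0.18 in the double mutant, −0.60 to −0.03 in lin-65 and 0.29 to 0.42 in met-2, with no overlap between any of them. In lin-65, then, unc-54 stood below myo-3 relative to N2 in each library, with gaps of −0.60, −0.03 and −0.19 in replicates 1, 2 and 3. In the other mutants unc-54 stood above myo-3. The authors had selected myo-3 for all 3 mutants, but unc-54 only for the double mutant and met-2. This selection favours a lower unc-54 than myo-3 in lin-65. These gaps were looked at with the values known and were not tested. How many other gene pairs separate the mutants in the same way was not counted. The gap of lev-11 over its thin filament partner mup-2, a troponin T, was 0.11 to 0.19, 0.17 to 0.26 and 0.20 to 0.34 in the double mutant, lin-65 and met-2.

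The remaining thick filament genes were mostly highest in the double mutant, next in met-2 and lowest in lin-65. Of 11 genes in a list of thick filament components and their assembly factors, 10 had values, and the myosin chaperone gene unc-45 did not. All 10 had means of at least 1 in the double mutant and in met-2, beside 85.8% and 68.3% of all genes. In lin-65 4 did, beside 36.3%. The authors had selected all 10 for the double mutant and for met-2, at an absolute mean of at least 1. The counts in those mutants were thus fixed by the selection. Myosin heavy chain myo-3 averaged 2.16 ± 0.05, 1.14 ± 0.17 and 1.74 ± 0.37 in the double mutant, lin-65 and met-2. The regulatory light chains mlc-1 (2.16, 1.02 and 1.73) and mlc-2 (1.87, 0.92 and 1.42) and the essential light chain mlc-3 (2.24, 1.03 and 1.92) were alike in this order. So were the giant kinases of the sarcomere, obscurin-like unc-89 (1.87, 0.91 and 1.65) and twitchin unc-22 (1.97, 0.68 and 1.74), and the kinase unc-82 (1.41, 0.82 and 1.24). The titin-like gene ttn-1 was the exception, with its highest mean in met-2 (1.70, 0.66 and 2.07). Its difference between the double mutant and met-2 of −0.37 did not pass (limma adjusted p = 0.168), although with centring it was the 1 filament gene called lower there.

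Among 16 thin filament genes 9 had values. The 4 muscle actin genes, which are nearly identical to each other, the actin regulators unc-60 and unc-78 and the tropomodulin unc-94 had none. In the double mutant, lin-65 and met-2, mup-2 averaged 2.29, 1.07 and 1.78, and troponin C pat-10 2.05, 1.16 and 1.51. The troponin I genes tni-1 (1.96, 1.09 and 1.64), tni-3 (1.96, 0.64 and 1.52) and unc-27 (1.63, 0.65 and 1.35) followed, with troponin T tnt-3 (1.81, 1.07 and 1.36) and the calponin-related unc-87 (1.84, 0.74 and 1.60). Troponin T tnt-2 was near 0 in lin-65 alone, with 1.72 ± 0.25, −0.03 ± 0.14 and 1.63 ± 0.15. Among the 19 filament genes with values, unc-15 had the highest mean in all 3 mutants. By the same order and for the double mutant, lin-65 and met-2, lev-11 was at places 2, 2 and 4 and unc-54 at places 3, 12 and 2.

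**Figure D3:**
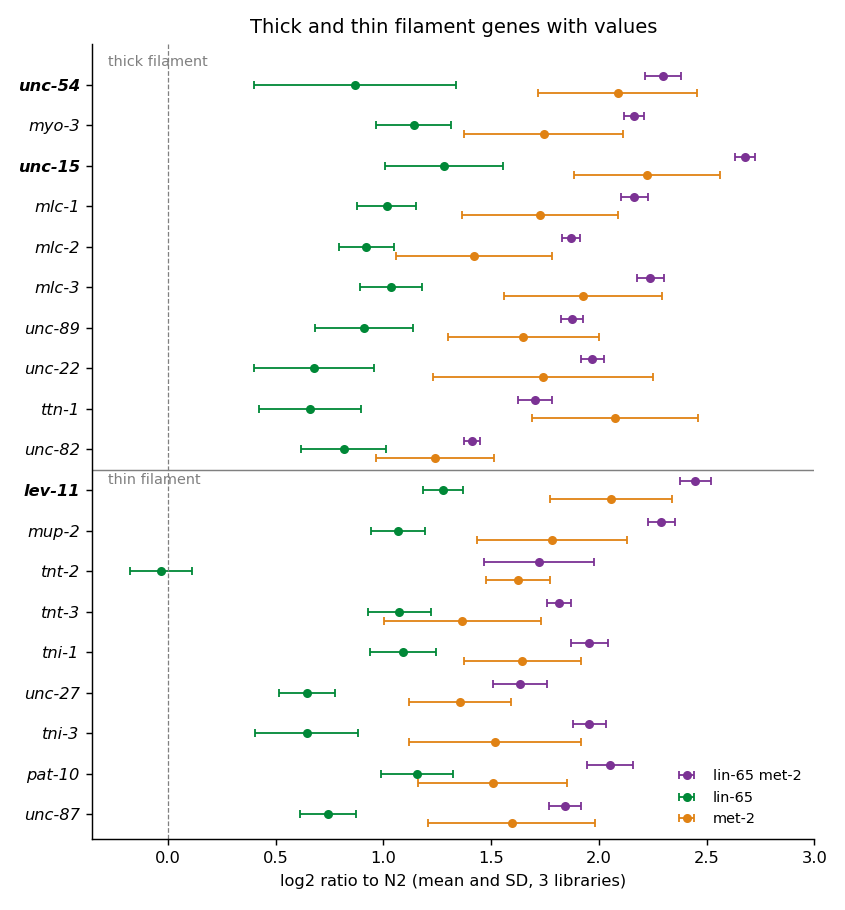
Mean log2 ratio to N2 with SD over 3 libraries (horizontal axis) is drawn for the 10 thick and 9 thin filament genes with values, in the lin-65 met-2 double mutant, lin-65 and met-2, with unc-54, unc-15 and lev-11 in bold. The lin-65 means lie left of the others for all 19 genes, and tnt-2 lies at −0.03 there.

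All 19 filament genes, these 3 included, were in the authors' double mutant and met-2 tables, and 4 were in the lin-65 table. Most thus entered through the mutants where they were high, which favours lower values in lin-65. All 19 were higher in the double mutant than in lin-65 by limma, beside 74.3% of all genes. Their median difference was 1.10, beside 0.70 over all genes. With centring 14 were higher, beside 21.6% of all genes. Set against met-2, 16 of 19 were lower in lin-65, beside 41.9% of all genes, with a median difference of −0.74, beside −0.42. With centring 13 were lower, beside 17.7%. The genes unc-82, tnt-3 and pat-10 did not pass against met-2 without centring. Between the double mutant and met-2 none of the 19 passed in limma and 9 were higher at an unadjusted p under 0.05, beside 33.4% of all genes. Their median difference was 0.31, beside 0.32 over all genes. Without met-2 replicate 1 the number higher by limma was 15, beside 59.7% of all genes. The wider muscle lists, which add attachment, membrane and calcium genes and transcription factors, held 63 genes, of which 42 had values. The authors' double mutant, lin-65 and met-2 tables held 42, 13 and 39 of them. Of these 42, 39 were higher in the double mutant than in lin-65 (with centring 19, and 2 lower), beside the 74.3% of all genes (with centring 21.6%, and 16.5% lower). In lin-65 26 were lower than in met-2 (with centring 14, and 1 higher), beside the 41.9% of all genes (with centring 17.7%, and 12.4% higher). The LIM domain gene lim-8 was the 1 gene higher in the double mutant than in met-2 (0.58, limma adjusted p = 0.0488), beside 11.8% of all genes, and without met-2 replicate 1 there were 29, beside 59.7%.

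Genes that anchor the filaments to the membrane had values for 12 of 18. By the mean over the 9 libraries the highest were lim-9 (2.51, 1.41 and 1.93 in the double mutant, lin-65 and met-2), alp-1, an Enigma family protein (2.34, 1.39 and 1.85), and unc-52, the basement membrane perlecan (2.33, 1.16 and 1.93). The lowest was unc-98 (1.20, 0.44 and 0.91), a zinc finger protein of the attachment sites. Membrane and calcium genes had values for 11 of 15, led by the calcium channel egl-19 (2.48, 1.48 and 2.11), calsequestrin csq-1 (2.23, 1.12 and 1.78) and the acetylcholine receptor subunit unc-38 (1.66, 1.57 and 1.48), while the GABA receptor unc-49 was lowest (1.16, 0.40 and 1.14). The means of unc-38 were close to each other in the 3 mutants, and its difference between the double mutant and lin-65 was 0.09 (SE 0.18, limma adjusted p = 0.649). None of the 3 muscle transcription factor genes hlh-1, unc-120 and hnd-1 was among the genes with values, so the label of body wall muscle rests on structural genes here.

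Markers of other differentiated tissues had, like the filament genes, their lowest medians in lin-65. So did all 2949 genes, with medians of 1.47, 0.83 and 1.20 in the double mutant, lin-65 and met-2. The part of such tissues in the values of unc-54, unc-15 and lev-11 was not tested. Values were held for 7 of 8 pharynx markers, 11 of 14 neuron markers, 5 of 8 intestine markers and 2 of 9 epidermis markers. The authors' lin-65 table held 0, 1, 0 and 1 of these, and their double mutant table held all of them. All were above 0 in every library of all 3 mutants, but the authors' tables hold mostly raised genes. The mean in the table's own mutant was above 0 for 2508 of 2638 genes (double mutant), 854 of 973 (lin-65) and 1922 of 1941 (met-2). The pharynx list had median values of 2.37, 0.73 and 2.11 in the double mutant, lin-65 and met-2, the neuron list 1.69, 0.67 and 1.23, and the intestine list 2.06, 0.74 and 1.69. By library, the pharynx medians ran from 2.31 to 2.44, 0.55 to 0.90 and 1.69 to 2.66, the highest met-2 value again in replicate 1. The pharyngeal troponin C tnc-2 (2.88, 1.68 and 2.51) and myosin myo-1 (2.52, 0.75 and 2.25) were highest in the pharynx list, and the transcription factor ceh-22 (1.20, 0.68 and 0.89) lowest. Among neuron markers these were the synaptic vesicle priming factor unc-13 (2.84, 1.52 and 2.36), the carboxypeptidase egl-21 (2.33, 1.04 and 1.94) and the kinesin unc-104 (1.00, 0.54 and 0.70). The aspartyl proteases asp-1 (2.84, 1.04 and 2.37) and asp-6 (2.19, 0.47 and 2.26) led the intestine list, which ended with the intestinal actin act-5 (1.92, 0.74 and 1.57). The epidermal genes with values were grh-1 (2.89, 1.73 and 2.28) and dpy-7 (1.54, 0.86 and 1.22). Over all 19 filament genes the medians were 1.96, 0.92 and 1.65.

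Oocyte and eggshell markers were ordered otherwise. Of 11 genes 8 had values, with medians of 0.90, 1.52 and 0.26 in the double mutant, lin-65 and met-2. All 8 were higher in lin-65 than in met-2 by limma, as were 4.92% of all genes. However, the authors had selected all 8 for lin-65, 3 of them also for the double mutant and none for met-2. These genes thus entered through the mutant where they were high, which favours higher values in lin-65. The eggshell proteoglycans cpg-1 (1.48, 2.02 and 0.53) and cpg-2 (1.26, 1.79 and 0.47) were highest and egg-3 (0.46, 1.02 and 0.12) lowest. None of 9 early zygotic markers had values. The genes with values include late differentiation genes and maternal genes that differ between the strains along with the muscle genes. How much of these differences is set by the selection is not known. The part of embryo age in the values of unc-54, unc-15 and lev-11 was not tested.

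**Figure D4:**
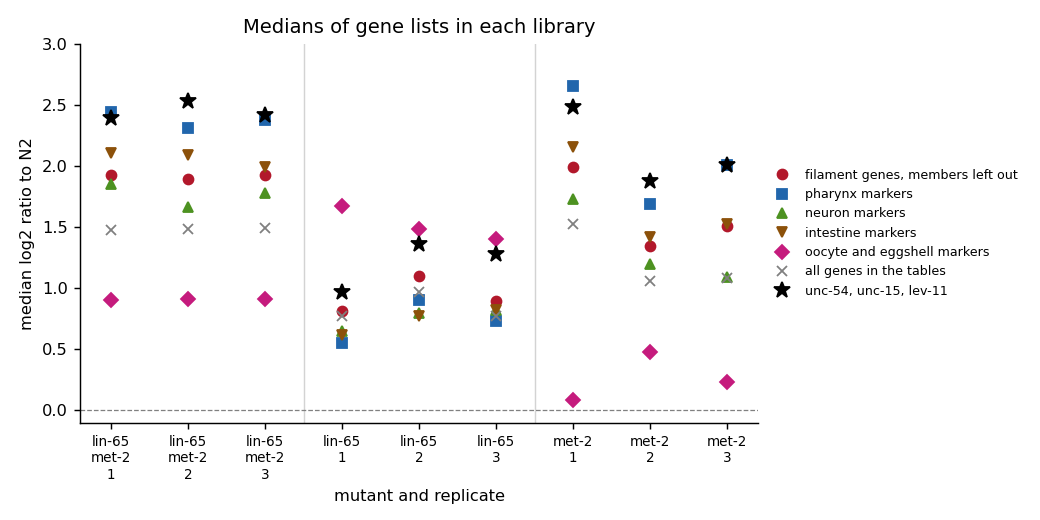
Median log2 ratio to N2 (vertical axis) of each gene list is plotted for each of the 9 libraries, with the median of unc-54, unc-15 and lev-11 as stars. The stars, the pharynx, neuron and intestine lists and all genes are lowest in the lin-65 libraries, where the oocyte and eggshell list is highest. Within met-2, replicate 1 is highest for the stars and for every list but the oocyte and eggshell one.

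Across the 9 libraries, unc-54 correlated with unc-15 at Pearson's r = 0.974 and with lev-11 at r = 0.946, and unc-15 correlated with lev-11 at r = 0.989. The points fall into 3 strains and share each library's scaling. With library medians removed the values were 0.937, 0.845 and 0.954. Such likeness was common among the selected genes, since 766, 1132 and 1154 genes had r of at least 0.9 with unc-54, unc-15 and lev-11. The 5 genes most correlated with unc-54 were mig-6, F32B5.7, daam-1, mlt-11 and the focal adhesion gene zyx-1 (r from 0.987 to 0.991). Their root mean square differences from unc-54 were 0.48 to 0.81. All 5 had smaller means than unc-54 in the double mutant and met-2, while in lin-65 F32B5.7 (1.12) and zyx-1 (0.92) were above its 0.87. For unc-15 they were T14B1.1, rimb-1, ttr-2, fkh-9 and abu-14 (r from 0.995 to 0.998), and T14B1.1 was also close in size, with a root mean square difference of 0.08. For lev-11 they were nhr-91, the collagens col-165 and col-74, the galectin lec-2 and the protease asp-3 (r from 0.994 to 0.995). Of these, lec-2 was closest in size at 0.05. Only zyx-1 among the 15 genes was in a muscle list.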

How the data were processed

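The tools named per the submitters' processing notes are edgeR and build ce10. The sources used here give no aligner, annotation, library scaling or gene selection rule. The authors deposited log2 values of 9 mutant libraries in 3 tables, here read as ratios to N2. Values agreed between tables, and each table holds genes with an absolute mean of at least 1 in its mutant, which shifts all medians away from 0. Depth is unknown, and SDs leave out N2 error.

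Symbols matched 2828 genes, and chromosomes and gene order came from Ensembl 115 (WBcel235). Mutants were compared by limma (version 3.58.1, R 4.3.3) in 1 fit of 9 libraries. The fit was also run on simulated data with independent noise and no shift shared by a whole library. That run thus does not cover shifts such as that of met-2 replicate 1. No sequence is shown.

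The 3 genes, the lists and the rule for named genes were chosen with earlier results of these data known. That rule took all filament genes with values, the highest and lowest means of other lists, the 5 most correlated genes per gene and 5 coding neighbours on each side. The gap to myo-3 and single exceptions (lim-8, unc-38, tnt-2, ttn-1 and genes without calls) were picked out after their values were seen. Alternatives were library centring, pairwise fits, array weights, a trended robust prior, a replicate block, fewer genes and left-out libraries.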

Additional observations from a re-analysis of the deposited data

How the results depend on the processing

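The calls of unc-54, unc-15 and lev-11 against lin-65, and of lin-65 against met-2, kept their direction and passed under all alternatives run. All of these used genes that the authors had selected. They therefore cannot remove the selection, which favours lower values of unc-54 and unc-15 in lin-65. With each library centred on its median, unc-54 in the double mutant minus met-2 turned to −0.05 (limma adjusted p = 0.873). Centring measures each gene against the library median of the selected, mostly raised genes, so centred means are not ratios to N2. It put the means of unc-54 at 0.81, 0.027 and 0.86 in the double mutant, lin-65 and met-2, of unc-15 at 1.20, 0.44 and 1.00, and of lev-11 at 0.96, 0.44 and 0.83. It called 143 genes higher and 272 lower in the double mutant than in met-2 (0 and 1 muscle genes), 637 and 486 against lin-65 (19 and 2 muscle genes), and 366 higher and 523 lower in lin-65 than in met-2 (1 and 14 muscle genes). For the double mutant against met-2, array weights turned the calls of unc-15 (0.62, limma adjusted p = 0.000817) and lev-11 (0.53, adjusted p = 0.000698) but not of unc-54 (0.32, adjusted p = 0.0806), with 1992 genes higher and 245 lower, and 36 muscle genes higher. A fit of these 2 mutants alone called 218 genes higher. That fit, the trended robust prior, the replicate block and the smaller gene set each called 0 muscle genes higher there. Leaving out 1 library at a time, differences of the double mutant minus met-2 ranged from 0.047 to 0.41 for unc-54, 0.35 to 0.65 for unc-15 and 0.30 to 0.55 for lev-11. Calls ranged from 62 to 1762 genes higher, 91 to 198 lower and 0 to 29 muscle genes higher. In lin-65 minus met-2, 780 to 1427 genes and 15 to 31 muscle genes were lower, the fewest without lin-65 replicate 1. Leaving out replicate 1 of both met-2 and lin-65, chosen after seeing the data, gave 0.41, 0.65 and 0.55 for unc-54, unc-15 and lev-11 (limma adjusted p = 0.0344, 0.00286 and 0.00479), with 1772 genes and 30 muscle genes higher, and 656 genes and 15 muscle genes lower in lin-65 than in met-2. The causes were not tested. Deviations of same-numbered libraries correlated at −0.21 to 0.04, so the numbers were not taken as pairs, and with the replicate block unc-15 and lev-11 differed between the double mutant and met-2 by 0.45 and 0.39 (limma adjusted p = 0.14 and 0.168), changing no call of the 3 genes.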

Other observations

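Values of the double mutant were below the sum of the single mutants for all 3 genes. The double mutant mean and that sum were 2.30 and 2.95 for unc-54, 2.68 and 3.50 for unc-15, and 2.45 and 3.33 for lev-11. The shortfalls were −0.66, −0.83 and −0.89, against a median of −0.54 over all genes. The N2 error enters this quantity and is unknown, so no test was made.

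The genes next to unc-54, unc-15 and lev-11 on chromosome I differed in how many had values, which means selection by the authors. The share of all coding genes with values was not worked out, so the counts have no background beside them. Of the 10 nearest coding genes, 3 had values beside unc-54, 5 beside unc-15 and 0 beside lev-11. Beside unc-54 these were the protein kinase A catalytic subunit kin-1 (1.63, 0.48 and 1.45 in the double mutant, lin-65 and met-2), the proprotein convertase aex-5 (1.35, 0.66 and 1.25) and maph-1.1 (1.33, 0.90 and 1.28). Beside unc-15 they were scav-6 (1.68, 1.26 and 1.67), F07A5.4 (1.57, 1.08 and 1.20), sue-1 (1.50, 0.48 and 1.51), the glutamate receptor auxiliary gene sol-1 (2.03, 1.23 and 1.32) and C15A11.4 (1.78, 0.45 and 1.60). Each of these means was below that of the filament gene beside it, except in lin-65 for maph-1.1 at 0.90, beside 0.87 for unc-54.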
